A study of Mus musculus with 16 samples.

Results

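The 31 genes described here encode the machinery that brings glucose into the cell and breaks it down to pyruvate and lactate, together with the kinases that set the flux and 2 genes of hypoxia regulation. They were chosen by name from this pathway, by a rule that uses no measured value but with earlier results of these data known, and are 31 of the 22375 genes counted in RNA of mouse embryonic stem (ES) cells. By role they were 2 glucose transporters, 9 enzymes of upper glycolysis, 7 of lower glycolysis, 4 genes of lactate production and export, 6 kinases that set the flux, 1 phosphoglucomutase that links the pathway to glycogen, and 2 genes of hypoxia regulation. All 31 had enough counts to be tested.

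Total RNA depleted of ribosomal RNA was sequenced from ES cells of strain 129/OLA in 4 groups of 2 biological replicates each, and every biological replicate was sequenced in 2 runs. The groups were WT cells of the E14TG2a line and Cfp1-/- cells, which lack the CpG-binding subunit of the Set1 histone H3K4 methyltransferase complexes, each left untreated or given doxorubicin for 6 hours. Doxorubicin is a topoisomerase poison that breaks DNA and activates p53. The treatment protocol gives its concentration as 1 µM, whereas the treatment label of the treated samples is written with mM as its unit. All 4 groups grew without feeder cells on gelatin, in serum with leukaemia inhibitory factor and pyruvate. WT and Cfp1-/- cells are separate lines, so a difference between them cannot be told apart from a difference between lines, and nothing in the labels says what the biological replicates of a group share or whether they came from separate cultures.

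Cxxc1, the gene that encodes Cfp1, held 1412 and 1117 counts in the untreated WT libraries, 616 and 829 in the treated WT libraries, 4 and 3 in untreated Cfp1-/- cells and 3 and 1 in treated Cfp1-/- cells, so the libraries matched their genotype labels. Libraries held between 11772320 and 29422711 counts after the runs were joined. Of 2 libraries the runs differed beyond sampling noise. Replicate 1 of treated WT cells gave a chi-square of 9.61 per degree of freedom between its runs, and replicate 1 of treated Cfp1-/- cells gave 42.9, against 0.998 to 1.05 in the other 6 libraries. In the second run of that Cfp1-/- library, 439 of 529 well-counted genes past a point on chromosome 19 and on X and Y were at 0, among them Pdk3, with 740 counts in the first run, and this run was therefore left out. Levels are given below as CPM (counts divided by the library total and multiplied by 1000000) corrected by TMM factors, which assume that most genes do not differ. Since RNA of whole cultures was measured, fewer cells and less RNA per cell cannot be told apart.

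Glycolysis turns 1 glucose into a pair of pyruvate molecules. Hexokinase traps glucose as its phosphate, phosphofructokinase makes the committed step, aldolase and triosephosphate isomerase split the sugar, and the lower part of the pathway, from GAPDH to pyruvate kinase, recovers ATP. Pyruvate is then reduced to lactate by lactate dehydrogenase and exported by monocarboxylate transporters, or it enters mitochondria. There it is used by pyruvate dehydrogenase, which the PDH kinases switch off. ES cells in serum are known for a high glycolytic rate, and hypoxia-inducible factor 1 (HIF-1), MYC family proteins and p53 are known regulators of many of these genes.

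Promoter sequences of the 3 members that were lower both after doxorubicin in WT cells and in untreated Cfp1-/- cells, and of Pfkfb4, which rose after doxorubicin in both lines, are shown as examples only. Of the 31 members 9 were lower after doxorubicin in WT cells and 11 in untreated Cfp1-/- cells. The comparisons that chose the first 3 share the untreated WT libraries, so high values there would make a gene lower in both. Their overlap was not counted over all genes, and whether 3 is more than expected was not tested. Each run is the 250 bases before the RefSeq start in build GRCm38.p6, on the strand of the gene, 5′ to 3′. Capitals mark ACGTG or GCGTG, the cores that HIF-1 and related factors read, on either strand. Pdk1 has a second RefSeq start, whose 250 bases, chr2:71874654-71874903, hold neither core, and the window shown is the other one.

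Pdk1, chr2:71872974-71873223, plus strand: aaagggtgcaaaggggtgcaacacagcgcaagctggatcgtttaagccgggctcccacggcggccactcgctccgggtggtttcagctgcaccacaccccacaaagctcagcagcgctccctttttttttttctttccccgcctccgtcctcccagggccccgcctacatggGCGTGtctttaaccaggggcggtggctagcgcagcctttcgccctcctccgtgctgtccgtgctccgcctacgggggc
Slc16a1, chr3:104638414-104638663, plus strand: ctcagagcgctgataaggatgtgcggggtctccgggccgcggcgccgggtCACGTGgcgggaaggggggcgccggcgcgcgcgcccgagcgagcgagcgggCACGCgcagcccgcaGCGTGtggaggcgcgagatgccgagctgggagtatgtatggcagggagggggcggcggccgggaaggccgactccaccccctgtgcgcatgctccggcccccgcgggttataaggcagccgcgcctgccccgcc
Slc16a3, chr11:120948817-120949066, plus strand: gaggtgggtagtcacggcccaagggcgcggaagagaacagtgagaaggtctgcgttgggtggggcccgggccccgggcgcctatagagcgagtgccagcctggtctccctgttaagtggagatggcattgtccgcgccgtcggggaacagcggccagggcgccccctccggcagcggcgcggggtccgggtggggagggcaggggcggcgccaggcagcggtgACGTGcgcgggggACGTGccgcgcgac
Pfkfb4, chr9:108991652-108991901, plus strand: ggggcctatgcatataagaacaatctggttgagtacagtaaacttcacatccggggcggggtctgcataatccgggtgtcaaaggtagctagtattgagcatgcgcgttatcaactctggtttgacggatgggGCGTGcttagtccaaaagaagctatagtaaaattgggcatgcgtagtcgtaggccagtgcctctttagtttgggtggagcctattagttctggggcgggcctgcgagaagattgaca

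In Slc16a1 the first capitals spell the whole palindrome CACGTG, the E-box read by MYC and related factors, which contains ACGTG on both strands. Of the 31 members 30 were found in the RefSeq promoter table with 46 windows of 250 bases before and 50 after a start, and Slc2a3 was the member not found. ACGTG on either strand lay in 52.2% of member windows against 19.6% of all 32851 windows. The shares were 54.3% against 32.4% for GCGTG, 17.4% against 7.15% for CACGTG, 54.3% against 35.7% for the GC box GGGCGG, 41.3% against 37.4% for CCAAT and 6.52% against 13.6% for TATAAA. The median GC content was 61.2% in member windows and 52.7% in all windows. These matches are a description of letters, and some windows of 1 gene overlap.

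Summed over the 31 members, the level in the untreated WT libraries was 12805 and 14298 CPM, and it was 8873 and 9932 CPM after doxorubicin. In Cfp1-/- cells the sums were 8179 and 10198 CPM untreated and 6384 and 7085 CPM treated. With this scaling the treated libraries lay below the untreated ones in both lines, and untreated Cfp1-/- cells lay below untreated WT cells. Without the TMM scaling the members took 1.1% and 1.22% of all counts in untreated WT cells and 0.945% and 1.05% in treated WT cells. The shares were 0.788% and 1.01% in untreated Cfp1-/- cells and 0.706% and 0.815% in treated Cfp1-/- cells. The treated and untreated Cfp1-/- libraries thus overlapped without the scaling. Pyruvate kinase M (Pkm, written Pkm2 in the annotation) was the most abundant member, at a mean of 1565 CPM per kb of exon in untreated WT cells, followed by Aldoa at 452, Ldha at 357 and Gapdh at 258 CPM per kb. The least abundant were Pdk2 at 0.315, Eno2 at 0.536 and Pfkfb4 at 0.596 CPM per kb.

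**Figure D1:**
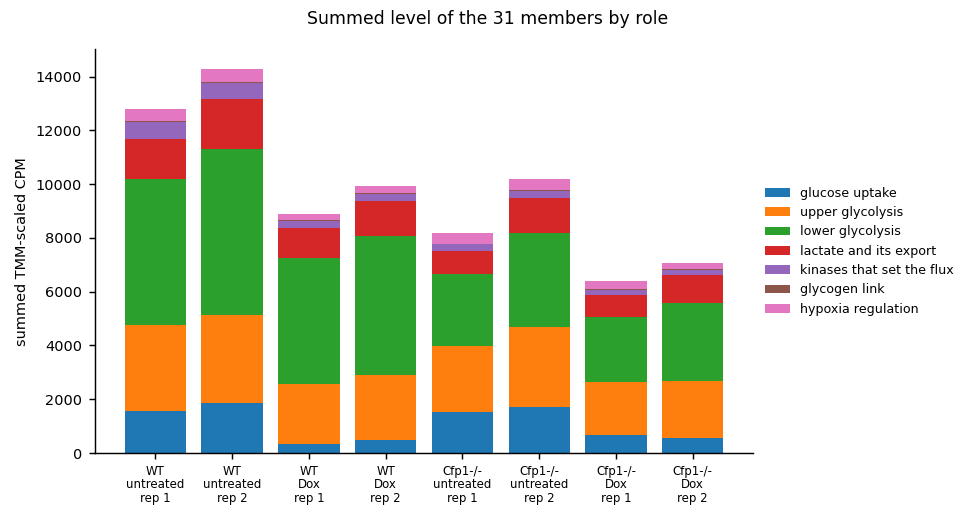
Summed TMM-scaled CPM (vertical axis) of the 31 members in each of the 8 biological replicates, stacked by role. The untreated WT bars reach 12805 and 14298 and the treated Cfp1-/- bars 6384 and 7085, and lower glycolysis, which holds Pkm, is the tallest segment in every library.

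After doxorubicin the glucose transporters, hexokinase 2, the platelet type phosphofructokinase, the lactate exporters, PDH kinase 1 and both genes of hypoxia regulation were lower in WT cells, while 13 of the 16 enzymes of upper and lower glycolysis did not pass the test. With the replicate number fitted as a block 9 of the 16 did not, since Tpi1, Pgk1 and Pkm were then called lower and Hk1 higher. Of the 31 members 9 fell (29.0%) and 3 rose (9.68%) in WT cells at an adjusted p under 0.05 (edgeR's quasi-likelihood test, Benjamini-Hochberg over 15762 genes). Among all genes tested 22.8% fell and 27.0% rose. In Cfp1-/- cells 8 members fell (25.8%) and 4 rose (12.9%), against 21.4% and 27.7% of all genes. The 8 that fell in Cfp1-/- cells were among the 9 that fell in WT cells, and Slc16a3 was the other. Over all genes 2656 fell in both lines, 74% of those that fell in WT cells and 78.7% of those that fell in Cfp1-/- cells, and 3387 rose in both, 79.7% and 77.7%. The members had a median log2 fold change of -0.26 in WT cells and -0.22 in Cfp1-/- cells, beside 0.06 and 0.01 over all genes. Scaling by total counts in place of TMM moved the median of all genes by 0.31 in the WT response and 0.21 in the Cfp1-/- response. The member medians were then 0.057 and -0.009, and 9 members fell and 9 rose in WT cells, the added ones being Gapdh, Gpi1, Hk1, Ldhb, Pdk2 and Pfkfb2. Among the genes other than the members 5856 rose and 1938 fell in WT cells with that scaling, against 4245 and 3579 with TMM. Of these calls 75.1% were higher with that scaling and 54.3% with TMM. The 2 responses have no library in common. Calls were also made with the limits used in the study, a change of 2.5-fold or more and 200 or more normalized counts on average. In WT cells 6 members then fell (19.4%) and 0 rose, against 2.8% and 5.1% of all genes. In Cfp1-/- cells 4 fell (12.9%) and 1 rose (3.23%), against 2.21% and 5.3%. Eno2 and Pfkfb4 rose 5.67-fold and 5.24-fold in WT cells, but each averaged under 200 normalized counts there. Eno2 also missed the count limit in Cfp1-/- cells, where it rose 3.01-fold. The shares of all genes include genes under that limit, which could not be called.

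**Figure D2:**
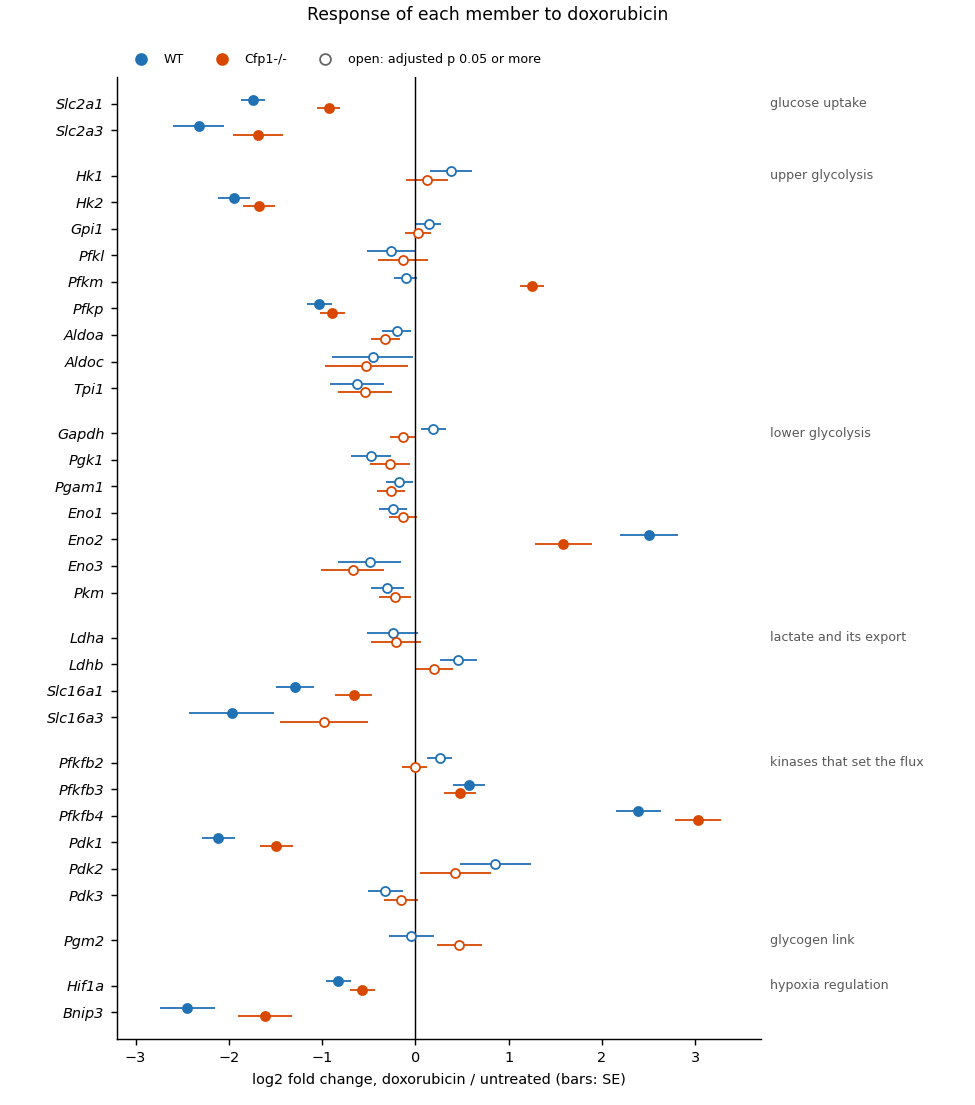
Log2 fold change of treated over untreated cells (horizontal axis) for each of the 31 members, grouped by role, in WT (blue) and Cfp1-/- cells (orange). Bars are standard errors and filled points have an adjusted p under 0.05. Slc2a3, Bnip3 and Pdk1 lie farthest to the left in WT cells and Eno2 and Pfkfb4 farthest to the right.

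Glucose enters ES cells mainly through GLUT1 and GLUT3, and both transporter genes fell in both lines. Slc2a1, which encodes GLUT1 (ENSMUSG00000028645, NCBIM37 chr4:118781316-118809935), stood at 491 and 580 CPM in untreated and 159 and 161 CPM in treated WT cells. The Cfp1-/- libraries stood at 445 and 510 CPM untreated and 255 and 247 CPM treated. The treated libraries were below the untreated ones in both lines without overlap, and the treated Cfp1-/- libraries were above the treated WT libraries. The log2 fold change was -1.74 ± 0.13 (SE) in WT cells (adjusted p = 1.1e-05) and -0.93 ± 0.13 in Cfp1-/- cells (adjusted p = 0.0003). The fall was smaller in Cfp1-/- cells by 0.81 ± 0.18 on the log2 scale, which did not pass the test of the difference (adjusted p = 0.122), although it did with the replicate number as a block (adjusted p = 0.0207) and in DESeq2 (adjusted p = 0.0132). Slc2a3, which encodes GLUT3 (chr6:122677827-122751658), went from 1059 and 1292 CPM to 165 and 305 CPM in WT cells, a log2 fold change of -2.32 ± 0.27 (adjusted p = 0.00012). Cfp1-/- cells went from 1083 and 1203 CPM to 406 and 302 CPM, a log2 fold change of -1.69 ± 0.27 (adjusted p = 0.00073). Per kb of exon the pair summed to 318 and 381 CPM in untreated WT cells and to 78.3 and 98.7 CPM in treated WT cells. In Cfp1-/- cells the pair summed to 306 and 345 CPM untreated and 145 and 128 CPM treated.

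In upper glycolysis 2 of 9 genes fell in both lines. Hk2 (ENSMUSG00000000628, chr6:82675019-82724448), the inducible hexokinase that binds mitochondria, stood at 606 and 587 CPM in untreated and 162 and 147 CPM in treated WT cells. Its log2 fold change was -1.95 ± 0.17 in WT cells (adjusted p = 2.5e-05) and -1.68 ± 0.17 in Cfp1-/- cells (adjusted p = 6.1e-05), where it went from 514 and 500 CPM to 189 and 129 CPM. Hk1, the constitutive hexokinase, was at 26.7 and 20.2 CPM in untreated and 35.3 and 26.0 CPM in treated WT cells and was called in neither response. Hk2 thus made up 97.0% and 97.7% of the hexokinase level per kb in untreated WT cells and 86.8% and 89.0% in treated WT cells, and 92.8% and 94.7% against 82.5% and 79.1% in Cfp1-/- cells. Pfkp, the platelet type of phosphofructokinase, fell from 372 and 307 CPM to 168 and 165 CPM in WT cells (log2 fold change -1.03 ± 0.13, adjusted p = 0.00023) and from 276 and 328 CPM to 160 and 165 CPM in Cfp1-/- cells (-0.89 ± 0.13, adjusted p = 0.00057).

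Pfkm, the muscle type of phosphofructokinase, was the only member with a called difference between the 2 responses. Pfkm (ENSMUSG00000033065, chr15:97923020-97962878) stood at 41.1 and 44.0 CPM in untreated WT cells, 38.5 and 40.5 CPM in treated WT cells and 45.0 and 39.5 CPM in untreated Cfp1-/- cells. In treated Cfp1-/- cells it stood at 101 and 99.3 CPM. The libraries of the first 3 groups lay between 38.5 and 45.0 CPM, and the treated Cfp1-/- libraries lay apart from all of them. The log2 fold change was -0.10 ± 0.13 in WT cells (adjusted p = 0.52) and 1.25 ± 0.13 in Cfp1-/- cells (adjusted p = 6.4e-05). The difference of the responses was 1.35 ± 0.18 (adjusted p = 0.0309), where 0.0952% of all genes were called higher and 0.152% lower, and 4 members (12.9%) had an unadjusted p under 0.05, near the 11.5% of all genes. Leaving out any of the 8 libraries kept the difference between 1.25 and 1.43 but took its adjusted p to between 0.0556 and 0.196. The second runs of the 2 libraries named above held fewer Pfkm counts for their depth than the first, with 154 against 456 counts in treated WT replicate 1, a ratio of 0.338 where all genes gave 0.58, and 438 against 1315 counts in treated Cfp1-/- replicate 1. Without both of these runs the difference was 1.24 (adjusted p = 0.0384). Per kb of exon, Pfkm was 10.1% and 10.7% of the phosphofructokinase level in untreated WT cells, 13.6% and 12.2% in treated WT cells, 21.8% and 14.2% in untreated Cfp1-/- cells and 43.7% and 38.2% in treated Cfp1-/- cells.

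The other 5 genes of upper glycolysis were called in neither response. Gpi1, the isomerase that follows hexokinase, was at 350 and 323 CPM in untreated and 416 and 326 CPM in treated WT cells. Pfkl, the liver type of phosphofructokinase and the most abundant of the 3 per kb in WT cells, gave a log2 fold change of -0.26 ± 0.26 in WT cells. Aldoa gave -0.20 ± 0.15, Aldoc -0.46 ± 0.43 and Tpi1 -0.63 ± 0.29 (adjusted p = 0.0963). Pfkl gave -0.10 without treated WT replicate 1 and -0.44 without replicate 2, and Aldoa gave -0.10 and -0.32. Tpi1, triosephosphate isomerase, was called lower with the replicate block in both lines (adjusted p = 0.00105 and 0.00621). Its log2 fold change in Cfp1-/- cells, -0.54 without the block, was -0.04 (adjusted p = 0.933) without untreated Cfp1-/- replicate 2 and -0.93 (0.0235) without replicate 1, and in WT cells it was -0.41 without treated WT replicate 1.

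In lower glycolysis 1 of 7 genes rose in both lines and the other 6 were called in neither response. The gene that rose was Eno2, the neuronal type of enolase, at 3.05 and 1.99 CPM in untreated and 11.8 and 17.0 CPM in treated WT cells (log2 fold change 2.5 ± 0.31, adjusted p = 0.00017). The Cfp1-/- values went from 2.88 and 3.32 CPM to 8.07 and 10.5 CPM (1.59 ± 0.30, adjusted p = 0.0021). Even so, Eno2 made up at most 3.08% of the enolase level per kb in any library, and Eno1, the form of most tissues, at least 76.4%. Gapdh was at 511 and 654 CPM in untreated and 649 and 680 CPM in treated WT cells, and at 286 and 306 CPM against 258 and 279 CPM in Cfp1-/- cells. Pkm, which encodes the pyruvate kinase of proliferating cells and of muscle, went from 3612 and 3872 CPM to 2874 and 3205 CPM in WT cells (-0.30 ± 0.17, adjusted p = 0.18). Pgk1, Pgam1, Eno1 and Eno3 gave log2 fold changes between -0.49 and -0.17 in WT cells. That of Eno3 was -0.02 without treated WT replicate 1 (adjusted p = 0.959) and -1.23 without replicate 2 (0.00662). In Cfp1-/- cells Pgk1 gave -0.27. This was -0.60 without untreated Cfp1-/- replicate 1 and 0.12 without replicate 2, so its size and sign rest on those 2 libraries. With the replicate block Pgk1 (adjusted p = 0.00987) and Pkm (adjusted p = 0.0412) were called lower in WT cells. With scaling by total counts and no block, the log2 fold change there was -0.16 for Pgk1 and 0.01 for Pkm. The direction for Pkm thus rests on the scaling.

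Among the genes of lactate handling, both exporters fell in WT cells, 1 of them fell in Cfp1-/- cells, and the dehydrogenases were called in neither response. Slc16a1, which encodes the lactate and pyruvate transporter MCT1, stood at 351 and 417 CPM in untreated and 129 and 185 CPM in treated WT cells (log2 fold change -1.29 ± 0.20, adjusted p = 0.00063). Its level in Cfp1-/- cells was 172 and 233 CPM untreated and 130 and 126 CPM treated (-0.66 ± 0.20, adjusted p = 0.02). This call in Cfp1-/- cells was lost with scaling by total counts (adjusted p = 0.0882) and without replicate 1 (0.0689) or 2 (0.113) of the treated or replicate 2 of the untreated Cfp1-/- libraries (0.146, log2 fold change -0.43). Slc16a3, which encodes MCT4, the exporter of highly glycolytic cells, went from 105 and 162 CPM to 26.9 and 40.9 CPM in WT cells (-1.97 ± 0.46, adjusted p = 0.006). Cfp1-/- cells held it at 12.6 and 39.7 CPM untreated and 10.7 and 15.7 CPM treated, where the groups overlapped (-0.98 ± 0.47, adjusted p = 0.113, and 0.00586 with the replicate block). Without untreated Cfp1-/- replicate 2 this log2 fold change was 0.06 (adjusted p = 0.91) and without replicate 1 it was -1.59 (adjusted p = 0.00726), so its size and sign rest on those 2 libraries. Ldha, the form of lactate dehydrogenase of glycolytic tissues, was at 927 and 1200 CPM in untreated and 810 and 984 CPM in treated WT cells. Ldhb, the form of oxidative tissues, was at 111 and 84.1 CPM in untreated and 160 and 108 CPM in treated WT cells (0.46 ± 0.20, adjusted p = 0.0813, and 0.007 with the replicate block).

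Of the 6 kinases that set the flux 2 rose, 1 fell and 3 were not called in each line. Pfkfb3 and Pfkfb4 encode bifunctional enzymes that make and break fructose 2,6-bisphosphate, the activator of phosphofructokinase. Pfkfb4 (ENSMUSG00000025648, chr9:108893947-108934737) stood at 2.5 and 2.43 CPM in untreated and 12.6 and 13.3 CPM in treated WT cells (log2 fold change 2.39 ± 0.24, adjusted p = 5.5e-05). In Cfp1-/- cells it went from 2.71 and 1.84 CPM to 18.7 and 18.5 CPM (3.03 ± 0.25, adjusted p = 2.1e-05). The treated libraries lay far above the untreated ones in both lines. Pfkfb3 rose from 20.1 and 25.9 CPM to 32.3 and 36.1 CPM in WT cells (0.58 ± 0.17, adjusted p = 0.019) and from 14.7 and 14.4 CPM to 20.5 and 20.2 CPM in Cfp1-/- cells (0.48 ± 0.17, adjusted p = 0.044, a call lost in DESeq2 (0.0834), with DESeq2's size factors (0.0592), with all runs summed (0.0646), with first runs alone (0.053), with no filter on low counts (0.0676) and on leaving out any library). The call in WT cells was lost without treated WT replicate 2 (adjusted p = 0.0903) or untreated WT replicate 1 (0.146), and in a fit of the 2 WT groups alone (0.0525). Pfkfb2, the heart type, was called in neither response, at 33.2 and 34.0 CPM in untreated and 37.9 and 42.4 CPM in treated WT cells (0.26 ± 0.13) and at 38.4 and 36.3 CPM against 36.6 and 37.6 CPM in Cfp1-/- cells (-0.01 ± 0.13). Summed per kb, the 3 genes were at 6.70 and 7.60 CPM in untreated and 11.4 and 12.5 CPM in treated WT cells. Pfkfb4 was 9.02% and 7.74% of this untreated and 26.9% and 25.7% treated.

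Pdk1 (ENSMUSG00000006494, chr2:71711281-71741915) encodes a PDH kinase, which switches off pyruvate dehydrogenase. It fell from 519 and 456 CPM to 122 and 103 CPM in WT cells, a log2 fold change of -2.11 ± 0.18 (adjusted p = 2.0e-05). In Cfp1-/- cells it fell from 112 and 138 CPM to 51 and 38.1 CPM (-1.49 ± 0.18, adjusted p = 0.00014). The untreated Cfp1-/- libraries were thus at about the level of the treated WT libraries. Pdk3 was at 55.7 and 61.6 CPM in untreated and 37.6 and 56.1 CPM in treated WT cells and Pdk2 between 0.923 and 2.02 CPM in all libraries, and neither was called. Pdk1 made up 75.1% and 70.6% of the PDH kinase level per kb in untreated WT cells, 50.6% and 37.1% in treated WT cells, 36.4% and 38.4% in untreated Cfp1-/- cells and 22.5% and 16% in treated Cfp1-/- cells.

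Both genes of hypoxia regulation fell in both lines. Hif1a, which encodes the oxygen-regulated subunit of HIF-1, went from 374 and 413 CPM to 199 and 245 CPM in WT cells (log2 fold change -0.83 ± 0.14, adjusted p = 0.00086) and from 367 and 362 CPM to 261 and 229 CPM in Cfp1-/- cells (-0.57 ± 0.13, adjusted p = 0.0065). With scaling by total counts these were -0.51 and -0.36, and the call in Cfp1-/- cells was lost without their treated replicate 2 (adjusted p = 0.0708). Bnip3, a mitophagy receptor and a known HIF-1 target, went from 68.6 and 89.2 CPM to 16.2 and 12.9 CPM in WT cells (-2.44 ± 0.30, adjusted p = 0.00015) and from 32.8 and 63.9 CPM to 15.9 and 15.6 CPM in Cfp1-/- cells (-1.62 ± 0.29, adjusted p = 0.0015, and a log2 fold change of -1.06 without untreated Cfp1-/- replicate 2). Pgm2, the phosphoglucomutase between glucose 1-phosphate and glucose 6-phosphate, which RefSeq now names Pgm1, was called in neither response, at 47.3 and 42.8 CPM in untreated and 41.9 and 45.4 CPM in treated WT cells and at 18.9 and 34.0 CPM against 33.4 and 39.9 CPM in Cfp1-/- cells.

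**Figure D3:**
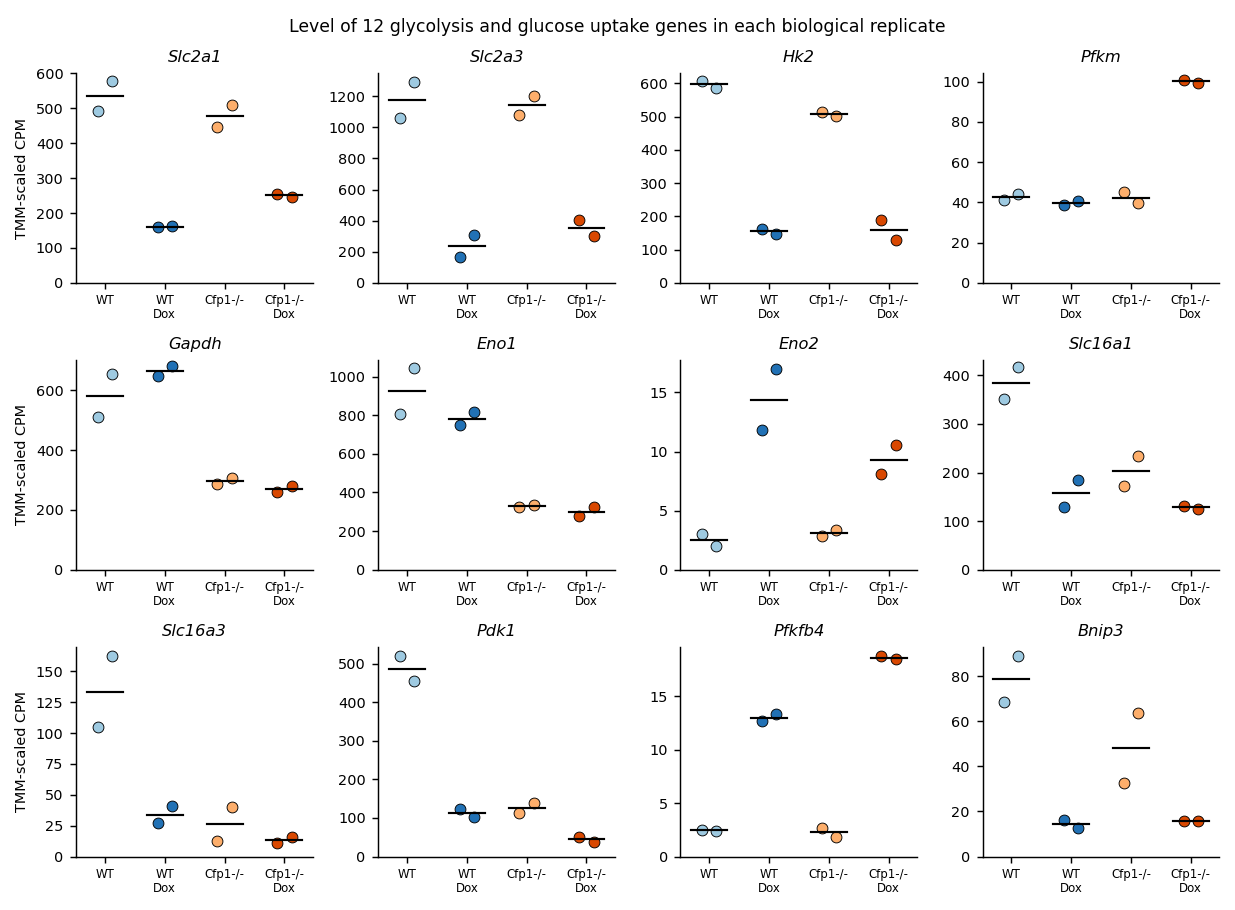
TMM-scaled CPM (vertical axes, from 0) of 12 members in the 8 biological replicates. Points are single libraries and lines are means of 2. Pfkm is near 40 CPM in 3 groups and near 100 CPM in treated Cfp1-/- cells, and Gapdh and Eno1 separate by line.

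Of the 16 enzymes of upper and lower glycolysis, 6 were lower in untreated Cfp1-/- cells than in untreated WT cells, 2 were higher and 8 were not called. Of the 31 members 11 were lower (35.5%) and 3 higher (9.68%), where 17.2% of all genes were lower and 18.7% higher. The members had a median log2 fold change of -0.23 beside 0.01 over all genes. With scaling by total counts these medians were -0.042 and 0.198. Leaving out 1 library at a time gave member medians of -0.299 to -0.096. At the limits of the study 6 were lower (19.4%) and 0 higher, against 1.52% and 1.82% of all genes, which include those under the count limit. With doxorubicin 8 members were lower (25.8%) and 4 higher (12.9%) in Cfp1-/- cells, against 12.1% and 16% of all genes. At those limits 3 were lower (9.68%) and 1 higher (3.23%) there, against 1.08% and 1.61%. The comparisons of untreated and of treated cells share no library, and 8 members were lower and 2 higher in both. Over all genes 1383 were lower in both, 51.1% of those lower in untreated and 72.8% of those lower in treated cells, and 1765 were higher in both, 59.9% and 70.1%.

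Of the 7 genes of lower glycolysis 4 were lower in Cfp1-/- cells with and without the drug. Eno1 stood at 805 and 1048 CPM in untreated WT cells against 325 and 333 CPM in untreated Cfp1-/- cells, and at 750 and 817 CPM against 276 and 324 CPM after treatment. The libraries of the 2 lines lay apart in both states. Its log2 fold change was -1.49 ± 0.15 untreated (adjusted p = 0.0002) and -1.39 ± 0.15 treated (adjusted p = 0.00048). Gapdh, which makes the NADH of glycolysis, gave -0.98 ± 0.14 untreated (adjusted p = 0.00089) and -1.31 ± 0.14 treated (adjusted p = 0.00043). Pgk1, on the X chromosome, was at 327 and 401 CPM in untreated WT cells against 107 and 176 CPM in untreated Cfp1-/- cells (-1.37 ± 0.22, adjusted p = 0.0017), and at 252 and 272 CPM against 105 and 128 CPM with the drug (-1.16 ± 0.22, adjusted p = 0.0052). Pkm stood at 1807 and 2508 CPM in untreated and 1657 and 2049 CPM in treated Cfp1-/- cells (-0.79 ± 0.17, adjusted p = 0.0072, and -0.71 ± 0.17, adjusted p = 0.015), below all 4 WT libraries. The call of Pkm between untreated lines was lost without untreated Cfp1-/- replicate 1 (adjusted p = 0.0607), and that between treated lines without treated Cfp1-/- replicate 1 (0.104) or treated WT replicate 2 (0.065).

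In upper glycolysis, Tpi1 was lower in Cfp1-/- cells. It stood at 56.1 and 104 CPM against 262 and 325 CPM untreated (-1.87 ± 0.30, adjusted p = 0.0016). After treatment it stood at 45.4 and 64.4 CPM against 157 and 222 CPM (-1.79 ± 0.30, adjusted p = 0.0029). Pfkl was at 103 and 191 CPM against 353 and 386 CPM untreated (-1.33 ± 0.27, adjusted p = 0.0048) and at 113 and 154 CPM against 273 and 345 CPM treated (-1.21 ± 0.27, adjusted p = 0.01). Hk1 and Gpi1 were higher. Hk1 stood at 56.8 and 40.4 CPM in untreated Cfp1-/- cells (1.05 ± 0.23, adjusted p = 0.0066) and at 57.2 and 48.8 CPM in treated ones (0.79 ± 0.23, adjusted p = 0.029). Gpi1 stood at 518 and 563 CPM in untreated Cfp1-/- cells (0.68 ± 0.14, adjusted p = 0.0049) and at 527 and 572 CPM in treated ones (0.57 ± 0.14, adjusted p = 0.015). Between treated lines the call of Pfkl was lost without treated Cfp1-/- replicate 1 (adjusted p = 0.0814), and those of Hk1 and Gpi1 without treated Cfp1-/- replicate 1 (0.16 and 0.0541) or 2 (0.08 and 0.102) or treated WT replicate 2 (0.148 and 0.0897). Pfkm was called only after treatment, with a log2 fold change of -0.01 ± 0.13 untreated and 1.34 ± 0.13 treated (adjusted p = 0.0003), and the difference between those 2 values is the called difference of responses given above. Hk2, Pfkp, Aldoa and Aldoc were called in neither comparison of the lines.

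**Figure D4:**
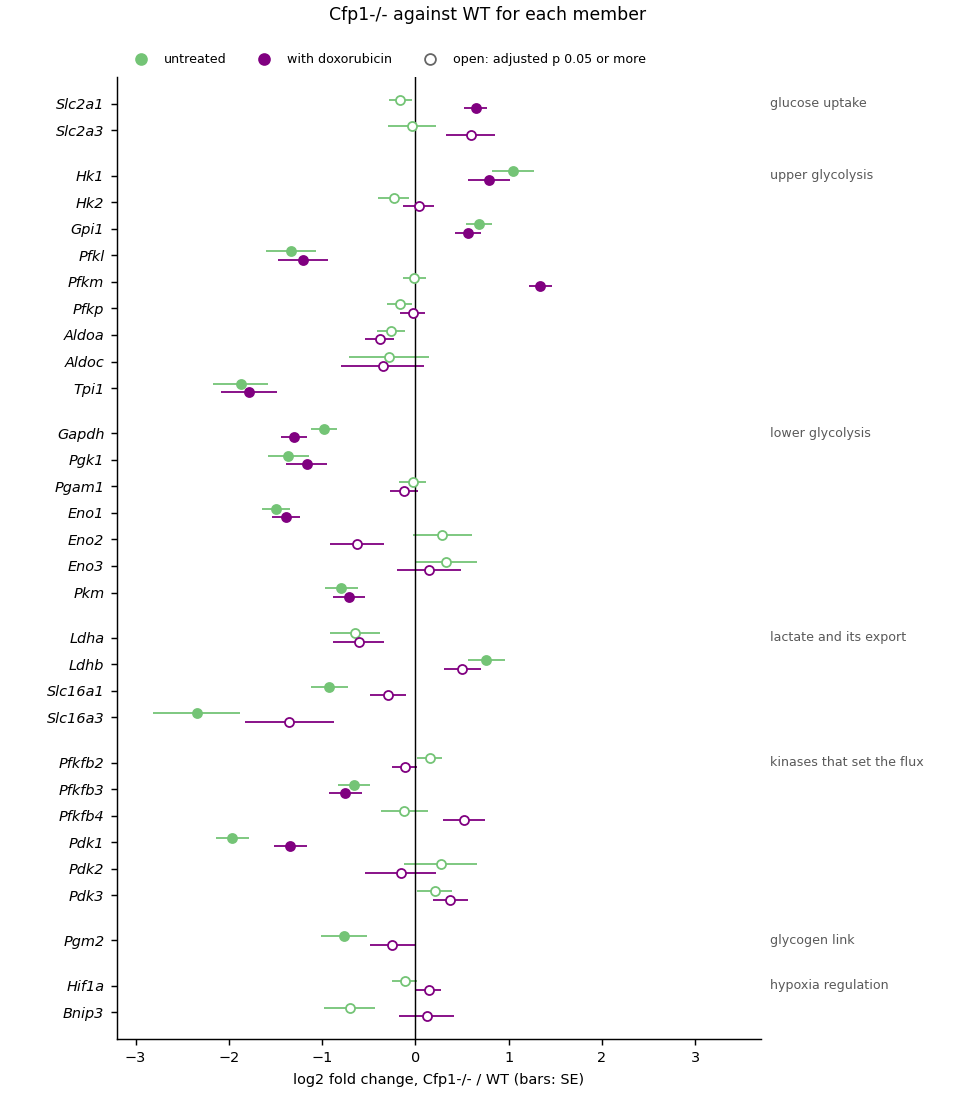
Log2 fold change of Cfp1-/- over WT cells (horizontal axis) for each of the 31 members, grouped by role, untreated (green) and with doxorubicin (purple). Bars are standard errors and filled points have an adjusted p under 0.05. Slc16a3, Pdk1 and Tpi1 lie farthest to the left untreated, and Pfkm lies at -0.01 untreated and at 1.34 with the drug.

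Among the other members, Pdk1 was lower in Cfp1-/- cells by a log2 fold change of -1.96 ± 0.17 untreated (adjusted p = 0.00011) and -1.34 ± 0.18 treated (adjusted p = 0.001). Pfkfb3 was lower in both states (-0.65 ± 0.17, adjusted p = 0.016, and -0.75 ± 0.17, adjusted p = 0.012). Slc16a3 (-2.35 ± 0.47, adjusted p = 0.0045), Slc16a1 (-0.92 ± 0.20, adjusted p = 0.0064) and Pgm2 (-0.77 ± 0.24, adjusted p = 0.034) were lower in untreated Cfp1-/- cells and were not called with the drug, and their differences of responses were not called either. The log2 fold change of Slc16a3 was -1.72 without untreated Cfp1-/- replicate 1 (adjusted p = 0.0148) and -3.40 without replicate 2 (0.00146). That of Pgm2 was -0.38 without untreated Cfp1-/- replicate 1 (adjusted p = 0.186) and -1.25 without replicate 2 (0.00413). Its call was also lost with scaling by total counts (0.104), in a fit of the 2 groups alone (0.072) and on leaving out any single untreated WT or treated Cfp1-/- library (0.0523 to 0.12). The untreated call of Slc16a1 was lost without untreated Cfp1-/- replicate 1 (adjusted p = 0.0594). The untreated call of Pfkfb3 was lost with scaling by total counts (adjusted p = 0.0616) and without either untreated Cfp1-/- replicate (0.0764 and 0.0697) or untreated WT replicate 2 (0.124), and its treated call without either treated Cfp1-/- replicate (0.0688 and 0.0887) or treated WT replicate 2 (0.0573). Ldhb was higher in untreated Cfp1-/- cells, at 176 and 154 CPM (0.76 ± 0.20, adjusted p = 0.016, but 0.0756 without untreated Cfp1-/- replicate 1 and 0.101 without untreated WT replicate 2). Ldha was at 496 and 864 CPM there, and its log2 fold change of -0.65 ± 0.27 had an adjusted p of 0.0899, and of 0.000944 with the replicate block. Ldhb made up 18.5% and 11.8% of the lactate dehydrogenase level per kb in untreated WT cells and 40.3% and 25.3% in untreated Cfp1-/- cells. Slc2a1 was higher in treated Cfp1-/- than in treated WT cells (0.65 ± 0.13, adjusted p = 0.0058), and Slc2a3, at 0.59 ± 0.26 (adjusted p = 0.119), was called there with the replicate block (adjusted p = 0.0326).

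**Figure D5:**
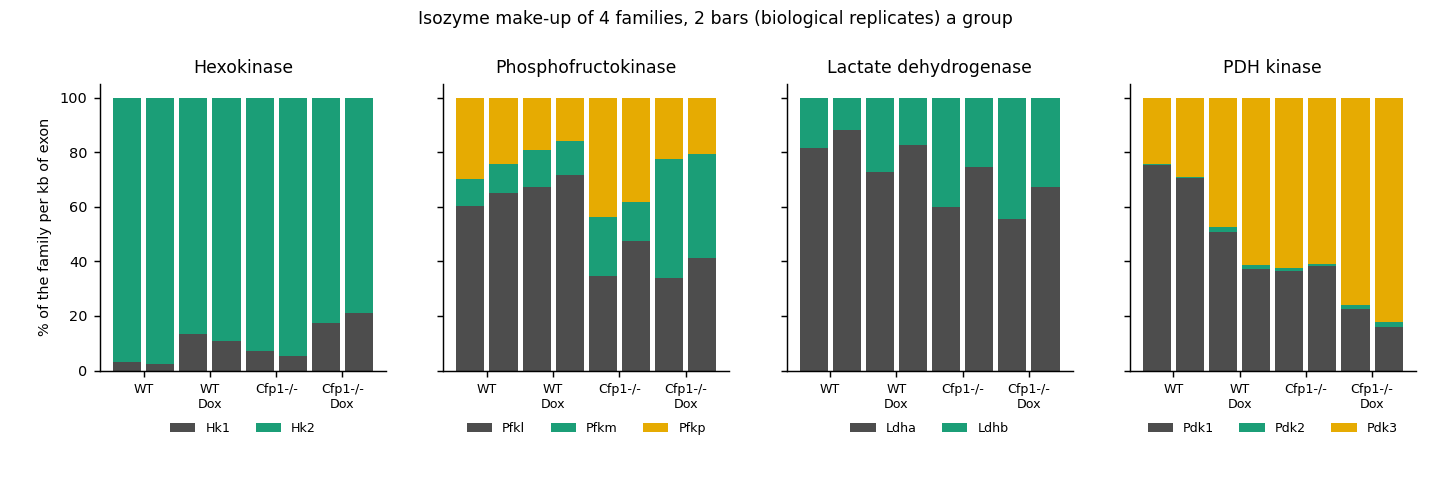
Share of each isozyme in its family (vertical axis, percent of the summed CPM per kb of exon), with 1 bar for each of the 8 biological replicates, for hexokinase, phosphofructokinase, lactate dehydrogenase and PDH kinase. Pfkm reaches 43.7% and 38.2% in treated Cfp1-/- cells, and Pdk1 falls from 75.1% and 70.6% in untreated WT cells to 22.5% and 16% there.

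With the replicate number as a block, 13 members fell and 5 rose in WT cells, 12 fell and 5 rose in Cfp1-/- cells, 13 were lower and 3 higher in untreated Cfp1-/- cells, 11 were lower and 7 higher in treated ones, and 2 had a called difference of responses, both higher. Of all genes the block called 27.1% lower and 30.1% higher in the WT response, 25.9% and 30.9% in the Cfp1-/- response, 22.3% and 23.1% between untreated lines, 17.5% and 21.4% between treated lines, and 1.27% lower and 0.964% higher in the difference of responses. The added calls that are not yet named were Hk1 (adjusted p = 0.027, higher) and Pdk3 (0.0474, lower) in WT cells, Aldoa (0.0279, lower), Eno3 (0.0311, lower) and Pgm2 (0.0464, higher) in Cfp1-/- cells, Bnip3 (0.017, lower) between untreated lines, and Aldoa (0.0164, lower), Ldha (0.00212, lower), Slc16a3 (0.000676, lower), Ldhb (0.00498, higher) and Pdk3 (0.0397, higher) between treated lines. Without the block, leaving out 1 library moved the log2 fold change of many of these added calls by over 1.5 times. Leaving out each library in turn, it ranged in WT cells from 0.14 to 0.60 for Hk1, from 0.14 to 0.71 for Ldhb and from -0.65 to -0.07 for Pdk3, and in Cfp1-/- cells from -0.53 to -0.11 for Aldoa and from 0.09 to 0.95 for Pgm2. Between untreated lines it ranged from -1.27 to -0.28 for Bnip3 and from -1.10 to -0.27 for Ldha, and between treated lines from -0.92 to -0.37 for Ldha, from 0.24 to 0.81 for Ldhb, from 0.11 to 0.69 for Pdk3 and from 0.21 to 1.1 for Slc2a3. The ends of these ranges came from leaving out 1 or the other treated WT library for Ldhb, Pdk3 and Slc2a3, a treated Cfp1-/- library for Ldha between treated lines, and an untreated Cfp1-/- library for Aldoa, Pgm2, Bnip3 and Ldha between untreated lines. Those of Hk1 came from leaving out treated replicate 1 and untreated replicate 1 of WT cells. Scaling by total counts moved the median of all genes by 0.19 between the untreated lines and by -0.10 in the difference of responses, and it lost the calls given above of Slc16a1 in the Cfp1-/- response and of Pfkfb3 and Pgm2 between untreated lines. Aldoc, Pgam1, Pfkfb2 and Pdk2 were called in none of the 5 comparisons, with or without the block.

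The neighbouring pathways were described by lists of other genes, whose counts stand beside the shares over all genes of 22.8% that fell and 27.0% that rose in WT cells, 21.4% and 27.7% in Cfp1-/- cells, and 17.2% lower and 18.7% higher between the untreated lines. The list of other isoforms, paralogues and partners held 32 genes, of which 24 were tested, and 9 rose and 1 fell in WT cells with a median log2 fold change of 0.55. Slc2a4, the insulin-regulated transporter GLUT4, rose from a mean of 1.58 to 19.9 CPM in WT cells (3.65, adjusted p = 2.32e-05) and from 1.46 to 33.8 CPM in Cfp1-/- cells. Slc2a9, a urate transporter, rose from 3 and 2 counts in the untreated to 53 and 27 counts in the treated WT libraries. Its log2 fold change of 4.34 ± 0.60 thus rests on few counts. Slc2a5, the fructose transporter (1.71), also rose, and Minpp1 fell (-0.47). The summed level of this list was 581 and 631 CPM in untreated and 552 and 609 CPM in treated WT cells, and its most abundant gene was Bsg, which encodes the chaperone of the lactate exporters.

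Of 15 genes for the entry of pyruvate into mitochondria and its use there 6 fell and 2 rose in WT cells, and 4 fell and 3 rose in Cfp1-/- cells. Pdha1, a catalytic subunit of pyruvate dehydrogenase, fell from a mean of 589 to 240 CPM in WT cells (-1.30, adjusted p = 3.44e-05), Pdhx and Dld, other components of that complex, fell by 0.62 and 0.58 on the log2 scale, and Pcx, pyruvate carboxylase (1.34), and Pdp1, a phosphatase that switches the complex on (0.63), rose. Of 14 genes of the pentose phosphate pathway 5 rose and 1 fell in WT cells and 7 rose and 1 fell in Cfp1-/- cells. Prps2, which makes phosphoribosyl pyrophosphate, rose from a mean of 82.8 to 174 CPM in WT cells (1.07, adjusted p = 0.000243), Shpk (3.81) and Tktl1 (3.71) rose from means of 0.898 and 0.349 CPM, and Prps1 fell (-0.54). Between the untreated lines 7 genes of this pathway were lower and 3 higher in Cfp1-/- cells.

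In the list of glycogen, hexosamine and serine branches 5 of 20 genes fell and 3 rose in WT cells. Shmt1, of the serine to glycine step (-1.16), Gnpnat1 (-1.50) and Gfpt2 (-1.27), of hexosamine synthesis, fell, and Pygm, muscle glycogen phosphorylase (3.75), and Gyg, glycogenin (0.78), rose. Of 5 gluconeogenesis genes tested 3 rose and 1 fell in WT cells. Fbp1 and Fbp2, fructose bisphosphatases, rose from means of 0.329 and 0.979 CPM to 4.97 and 15.4 CPM (3.90 and 3.95), Slc37a4 rose (1.30) and Pck2 fell (-0.85).

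Of 23 other hypoxia-inducible factors and targets tested 7 rose and 4 fell in WT cells, with a median log2 fold change of 0.11 beside 0.06 over all genes. Vegfa rose from a mean of 14.9 to 72.3 CPM in WT cells (2.28, adjusted p = 3.18e-05), and Plod2 (1.39) and Egln3 (0.88) rose, whereas Kdm3a fell from 364 to 73.9 CPM (-2.30) and Egln2 (-0.53) and Mxi1 (-0.73) fell. Between the untreated lines 7 of the 23 were lower and 1 higher in Cfp1-/- cells. Of 21 regulators of glycolytic genes 8 fell and 4 rose in WT cells. Mycn, a MYC family member, fell from a mean of 245 to 51.2 CPM in WT cells (-2.25). In Cfp1-/- cells it fell from 105 to 6.16 CPM (-4.08), and its difference of responses was called (-1.83, adjusted p = 0.0392). Lin28a, an RNA-binding protein of pluripotent cells (-1.25), and Prkaa1, a catalytic subunit of AMP-activated kinase (-1.16), fell, and Mlxipl, which encodes the glucose-sensing factor ChREBP (2.54), Prkaa2 (1.19) and Arrdc4, a known ChREBP target (0.90), rose.

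Markers of pluripotent cells moved with the treatment and between the lines. Of 12 markers 10 fell in WT cells and 9 in Cfp1-/- cells, and none rose. Their summed level was 5674 and 4588 CPM in untreated and 2265 and 1821 CPM in treated WT cells, and 4955 and 4759 CPM against 2000 and 1673 CPM in Cfp1-/- cells, with Tdgf1 the most abundant. Zfp42 fell from a mean of 598 to 58.4 CPM and Nanog from 235 to 34.2 CPM in WT cells, and no marker was at or under 3 counts in every library. Between the untreated lines 3 of the 12 were higher and 4 lower in Cfp1-/- cells, and between the treated lines 2 were higher and 1 lower. Markers of other cell types were fewer in counts, and some of them were also called. The 8 fibroblast markers summed to between 6.52 and 27.6 CPM in the 8 libraries, 1 of them with at most 3 counts in every library and Col1a1 most abundant, and 3 rose in each line, while 1 was higher and 3 lower in untreated Cfp1-/- than in untreated WT cells. The endoderm markers summed to between 6.92 and 20 CPM with Dab2 most abundant and 2 of their 9 identifiers at 3 counts or fewer in every library, and the 7 mesoderm and primitive streak markers to between 10.7 and 29.8 CPM, with Kdr most abundant. Of the 6 endoderm markers tested 1 rose in WT cells and 3 in Cfp1-/- cells, and 1 was higher in untreated Cfp1-/- cells. Of the 7 mesoderm markers 4 rose and 2 fell in WT cells, with a median log2 fold change of 1.46, 2 rose and 2 fell in Cfp1-/- cells, and 1 was lower in untreated Cfp1-/- cells. The 5 neural and ectoderm markers found summed to between 78.3 and 138 CPM with Tubb3 most abundant, and 1 rose and 2 fell in WT cells, 1 rose and 1 fell in Cfp1-/- cells, and 2 were higher and 2 lower in untreated Cfp1-/- cells. The part of these shifts in the values of the glycolytic genes was not tested.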

How the data were processed

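The authors used strand-specific libraries from RNA freed of ribosomal RNA, placed the reads on NCBIM37 by STAR and, with HTSeq-count in stranded union mode over exons of Ensembl genes, deposited raw counts per run. STAR is given as 2.2.1 in the submitters' processing notes and under another version in the paper. They also deposited a signal, the counts of both runs divided by a DESeq size factor. HTSeq-count by default leaves out reads that align to several places, and several glycolytic genes have processed pseudogenes, so their counts are less certain.

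The members and lists were chosen with earlier results of these data known. The coordinates of all 31 members were the same in the annotation used here. Runs were summed for each biological replicate (n = 2 per group), without run 2 of replicate 1 of treated Cfp1-/- cells. Counts were fitted with edgeR 4.0.16 in R 4.3.3 (filterByExpr, TMM, a coefficient for each of 4 groups, glmQLFit and glmQLFTest), with Benjamini-Hochberg adjustment over 15762 genes and a common dispersion of 0.0283. The SE is the log2 fold change over the square root of F. A call needed an adjusted p under 0.05. Leaving out a library leaves 1 in its group, which is then assumed to vary like the others. The steps were tested on simulated data. All members were named with values, and of each other list on metabolism or regulation up to 3 genes with the lowest adjusted p in the WT response in each direction; cell type markers were given by counts and sums. A gene that this rule would name is not reported here. Genes were compared in level only per kb of exon. Same-numbered replicates of different groups deviated together (correlation across genes 0.133 to 0.453 in 6 pairs of groups), so the number was also fitted as a block, although no source says what it marks. Alternatives were DESeq2 1.42.0, other scalings, other sets of runs, no filter, the replicate block, fits on 2 groups, the limits of the study and leaving out each library. Promoters are from RefSeq (GRCm38.p6), a build other than that of the counts. The p-values of the main fit set a difference between groups against the spread between these replicates, estimated over all 4 groups.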

Additional observations from a re-analysis of the deposited data

Results flagged for a closer look

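Pfkm was singled out because its response to doxorubicin differed between the lines by a test of the difference itself. The response in Cfp1-/- cells exceeded that in WT cells by 1.351 on the log2 scale (edgeR, adjusted p = 0.0309), with both treated Cfp1-/- libraries, at 101 and 99.3 CPM, above the other 6. No single gap within a group could be examined, since groups held 2 biological replicates.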

How the results depend on the processing

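None of the alternatives reversed the direction of a member called without the block. With the 2.5-fold and 200-count limits, members called higher and lower were 0 and 6 in the WT response, 1 and 4 in the Cfp1-/- response, 0 and 6 between untreated lines and 1 and 3 between treated lines, and genes called were 804 and 442, 836 and 348, 287 and 239, and 253 and 171. With total count scaling, members called higher in the WT response were 9, genes called lower were 1947 and 2128 in the WT and Cfp1-/- responses and 1701 between untreated lines, and the member medians were 0.057, -0.009, -0.042 (untreated lines) and -0.068 (treated lines). With the replicate block 5 members were higher in the WT response, 7 between treated lines and 2 in the difference of responses, where genes called were 152 higher and 200 lower, and it lost no call of a member. For that difference DESeq2 gave 2 members, 103 genes higher and 143 lower, and no filter on low counts gave 2, 87 and 141. Without the second runs of both treated replicates 1 the member median between treated lines was -0.261. The cause of these changes was not tested.

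Leaving out each replicate in turn gave member medians of -0.399 to -0.103 (WT response), -0.527 to -0.061 (Cfp1-/- response), -0.299 to -0.096 (untreated lines) and -0.313 to -0.051 (treated lines). In the difference of responses it gave 0 members, 0 to 10 genes higher and 0 to 15 lower. In the Cfp1-/- response it gave 6 to 12 members lower, with 6 without treated replicate 2 and 12 without untreated replicate 1, and 2861 to 4509 genes higher and 1747 to 3674 lower. Between untreated lines it gave 7 to 12 members and 1434 to 2914 genes lower, with 7 members without Cfp1-/- untreated replicate 1. Between treated lines it gave 2 to 5 members and 1046 to 2419 genes higher, and 5 to 9 members and 595 to 2099 genes lower, with 2 higher without either treated Cfp1-/- replicate and 5 lower without the first of them. The call of Pfkfb3 in the Cfp1-/- response was lost on leaving out any replicate. With 2 replicates per group and libraries of 11772320 to 29422711 counts, a change that missed the threshold was not shown to be absent. The authors' normalized counts gave log2 ratios within 0.0549 of the fitted values of members in the WT response and within 0.297 in the Cfp1-/- response, where they include the incomplete run.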
